A study of Mus musculus with 18 samples.

Results

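The chromatin around 10 mouse genes of the dual specificity phosphatase family (Dusp1, Dusp2, Dusp4, Dusp5, Dusp6, Dusp7, Dusp8, Dusp10, Dusp14 and Dusp16) was described from a catalog of accessible regions in bone marrow-derived macrophages (BMDMs). Each locus comprised the gene body and 50 kb on either side of the most upstream GENCODE M21 start site of the gene, on mm10. The 10 loci lay on 10 different chromosomes and held 152 of 82391 reference peaks, 155 of 84660 summits and 92 of 59617 extended regions. A reference peak is an interval of accessible DNA, a summit is a position of locally highest signal within a peak, and an extended region joins neighbouring peaks with their flanks.

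Dual specificity phosphatases remove phosphate from both tyrosine and threonine or serine residues. The classical members act on the activation loop of the mitogen-activated protein (MAP) kinases ERK, JNK and p38, and thereby end signals that pass through these kinases. In macrophages, several of them are known as early genes induced downstream of Toll-like receptors, and DUSP1 is known as a brake on p38 and on the production of inflammatory cytokines. DUSP1, DUSP2, DUSP4 and DUSP5 are inducible nuclear enzymes, DUSP6 and DUSP7 are cytoplasmic and selective for ERK, DUSP8, DUSP10 and DUSP16 are directed at JNK and p38, and DUSP14 is a small atypical enzyme without the MAP kinase binding domain.

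The BMDMs came from wild type mice and were profiled by ATAC-seq, in which the Tn5 transposase inserts adapters into exposed DNA. The 18 libraries made up 9 groups of 2, all of which had received the vehicle DMSO for 1 h. One group was then left untreated. The other groups were stimulated for 30 min, 1 h, 2 h or 4 h with 10 ng/mL of LPS, the lipopolysaccharide sensed by Toll-like receptor 4, or with 10 ng/mL of IL-4, a cytokine that signals through STAT6. According to the study's methods, the mice were C57/BL6 males and the cells were differentiated in culture. The 3 lists used here pool all libraries, so that no value per library, no depth and no comparison between LPS, IL-4 and untreated cells could be derived. A peak at a start site describes accessible DNA in at least some of the libraries, not transcription. All 10 macrophage markers examined (among them Csf1r, Adgre1 and Spi1) had a start site peak, against 0 of 4 T cell markers, 1 of 3 B cell markers (Ms4a1), 1 of 3 neutrophil markers (S100a8) and 2 of 3 fibroblast markers (Col1a1 and Pdgfra).

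The sequence under the best scored start site summit is shown for 6 members, those with the highest such scores among the 9 members of the RefSeq start table whose window held a motif of the list searched, to show how the promoters differ in these letters. Each run holds the summit and 100 bases on either side of it, was read from GRCm38.p6 on the strand of the gene and is written 5′ to 3′. Capitals mark motif letters on either strand. The motifs in these windows were the cyclic AMP response element (CRE, TGACGTCA), the CArG box bound by serum response factor, the GC box (GGGGCGGG), the E-box (CACGTG) and the PU.1 site (GAGGAAGT).
Dusp7: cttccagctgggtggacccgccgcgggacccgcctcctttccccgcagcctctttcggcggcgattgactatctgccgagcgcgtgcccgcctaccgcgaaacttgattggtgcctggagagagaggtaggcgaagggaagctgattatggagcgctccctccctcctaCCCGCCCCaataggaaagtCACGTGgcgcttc
Dusp5: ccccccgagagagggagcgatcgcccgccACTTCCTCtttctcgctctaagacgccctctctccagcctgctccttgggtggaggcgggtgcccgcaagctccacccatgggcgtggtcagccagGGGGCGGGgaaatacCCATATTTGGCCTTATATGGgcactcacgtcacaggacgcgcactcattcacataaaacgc
Dusp2: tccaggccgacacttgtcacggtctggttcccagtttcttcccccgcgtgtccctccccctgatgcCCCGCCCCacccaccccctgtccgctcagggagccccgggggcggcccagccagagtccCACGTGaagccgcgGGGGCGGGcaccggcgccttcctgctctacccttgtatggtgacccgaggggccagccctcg
Dusp1: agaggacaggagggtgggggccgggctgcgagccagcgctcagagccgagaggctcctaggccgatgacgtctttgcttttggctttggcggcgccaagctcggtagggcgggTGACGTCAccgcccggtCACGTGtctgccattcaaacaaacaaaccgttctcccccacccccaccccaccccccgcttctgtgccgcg
Dusp8: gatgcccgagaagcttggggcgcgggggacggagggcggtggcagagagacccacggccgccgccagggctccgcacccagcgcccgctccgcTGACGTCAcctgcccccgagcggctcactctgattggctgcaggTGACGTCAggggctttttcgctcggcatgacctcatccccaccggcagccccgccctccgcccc
Dusp16: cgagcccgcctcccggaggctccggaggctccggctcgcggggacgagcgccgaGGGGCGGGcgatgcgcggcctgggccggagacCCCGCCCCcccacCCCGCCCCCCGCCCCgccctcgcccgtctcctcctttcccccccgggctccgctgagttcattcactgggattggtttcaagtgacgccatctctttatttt
The Dusp5 window (chr19:53528923-53529123) held 2 adjoining CArG boxes, at 40 to 49 and at 50 to 59 bases after the summit. The Dusp1 window (chr17:26508528-26508728) held a CRE and an E-box, and the Dusp8 window (chr7:142095284-142095484) held 2 CREs. A GC box was found 4 times in the Dusp16 window (chr6:134792679-134792879) and 2 times in the Dusp2 window (chr2:127335925-127336125), which also held an E-box. The Dusp7 window (chr9:106367748-106367948) held 1 GC box and 1 E-box. The best start site summits of Dusp6 and Dusp10 had none of the 13 motifs within 100 bp, and that of Dusp14 held AP-1 and PU.1 letters but ranked below the 6 shown. Dusp4, which is not among these 9 members, had a GC box at its best start site summit (score 1708) and is not shown. These matches describe letters and were not tested as binding sites.

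All 10 members had a reference peak within 1000 bp of an annotated start site. Over all 21938 protein-coding genes, 12402 did, or 56.5%. Among the members this was the case for 9 of 10 genes when only the most upstream start site counted, against 52.1% of coding genes, the exception being Dusp10. It also held for 9 of 10 when only peaks with a summit at or above the median score of the catalog counted, against 50.7% of coding genes, the exception being Dusp14. The score is a whole number given for each summit on a scale that is not stated, and ran from 102 to 2781 with a median of 737 over the catalog. The scores of the 155 summits in the phosphatase loci ran from 114 to 2232 with a median of 748, and 80 of them (51.6%) were at or above the catalog's median.

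The loci differed widely in the number of peaks. Dusp1 had 28 reference peaks, Dusp7 had 23, Dusp2 had 22, Dusp5 had 18, Dusp6 had 16, Dusp4 had 13, Dusp16 had 12, Dusp8 had 10, and Dusp10 and Dusp14 had 5 each. The median was 14.5, against 6 over all coding genes and 10 over coding genes with a start site peak. Of the 10 members, 5 exceeded the third quartile of the latter genes, which was 15. The members with the most peaks were nuclear inducible or cytoplasmic ERK-selective phosphatases. These classes mix location in the cell with substrate. Dusp1 (28 peaks), Dusp2 (22) and Dusp4 (13), counted as nuclear, also act on JNK, p38 or both. The class directed at JNK and p38 thus does not hold all phosphatases of these kinases. The medians were 20 for the 4 nuclear, 19.5 for the 2 cytoplasmic and 10 for the 3 JNK and p38-directed members. These counts include peaks nearer to neighbouring genes. With only the peaks nearest to the member among coding genes, the medians were 12.5, 15.5 and 5, so that the order of the nuclear and cytoplasmic members turned. With 1 pooled catalog these counts have no replicate error, and the members were not chosen at random, so that no test of the difference was made.

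**Figure D1:**
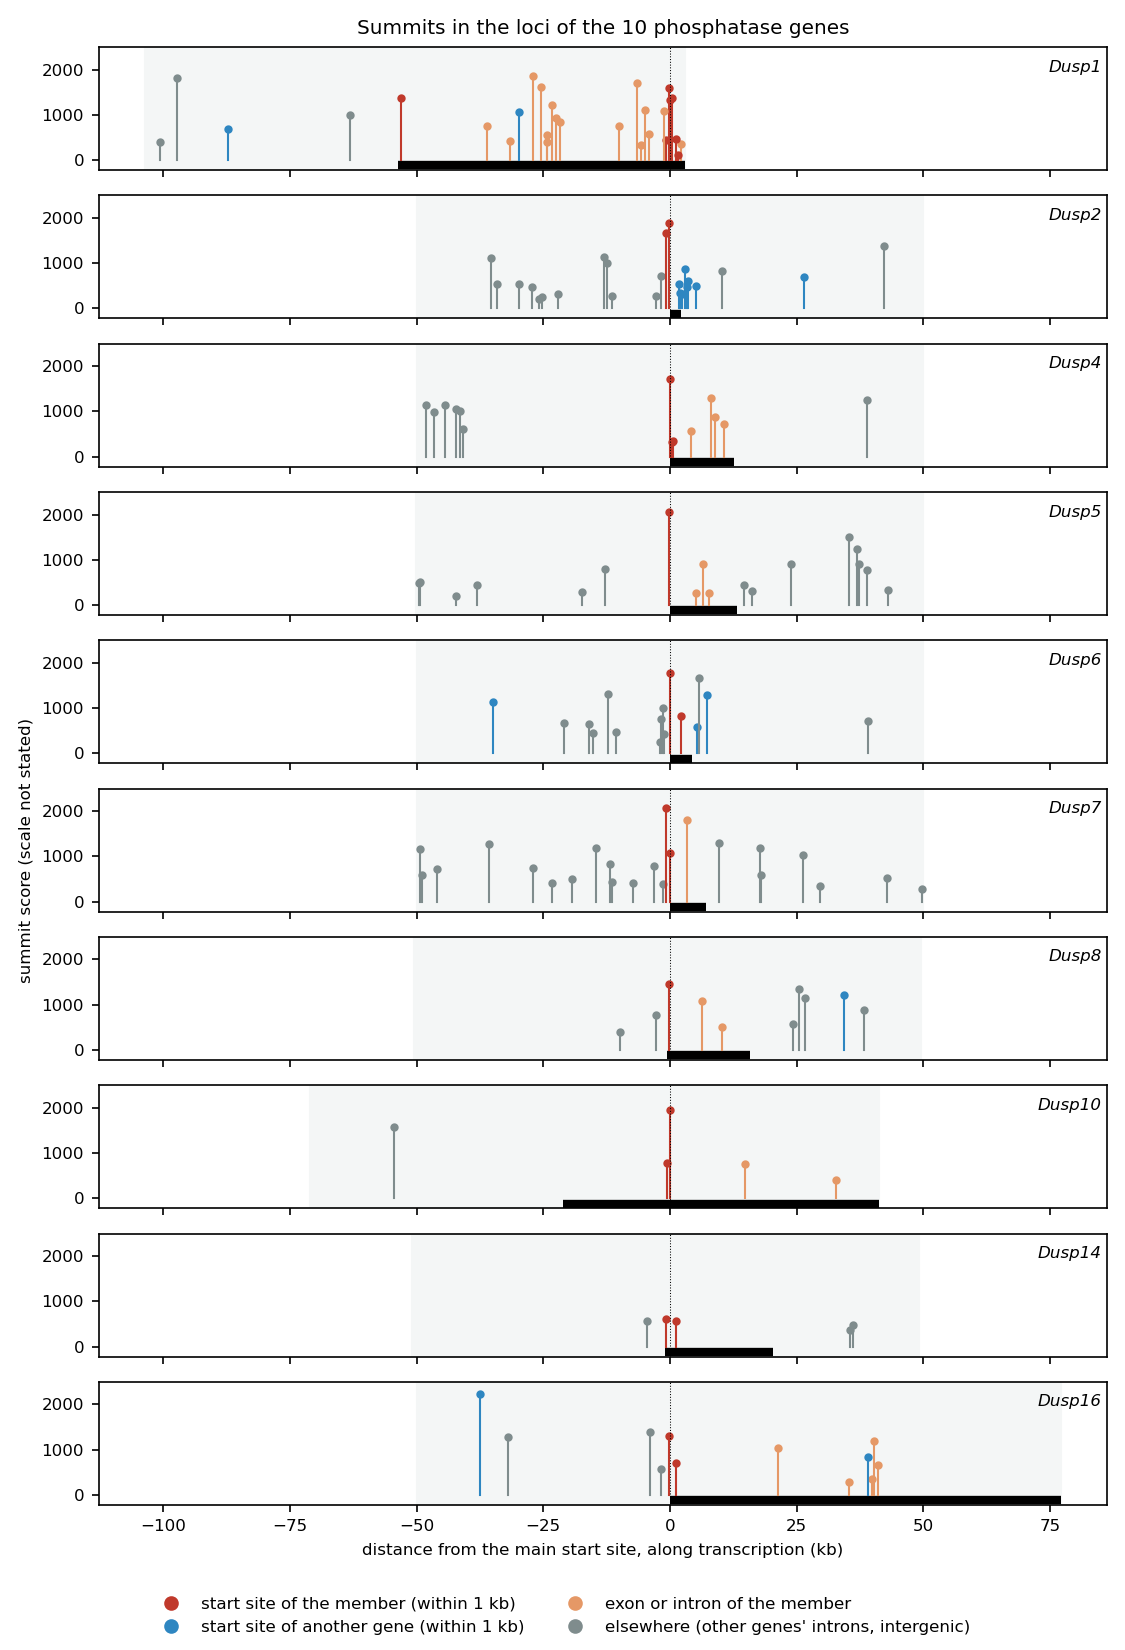
Score of each summit (scale not stated) against its distance from the main start site in kb, with transcription running to the right, for the 10 loci (grey background). Black bars are gene bodies, and colours give the position of the summit. The highest summit lay at a start site of the gene itself in 8 of 10 loci, the exceptions being Dusp1 and Dusp16, against 43.3% of coding genes with a start site peak.

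Positions below are given from the main start site, which is the RefSeq start for 9 members and the single GENCODE start for Dusp4. Negative values lie upstream. The highest summit of the locus lay at a start site of the gene itself in 8 of 10 loci. This was so for 43.3% of the coding genes with a start site peak, and for 30.6% of the 17548 coding genes with a summit in their locus. The main start site lay inside a reference peak for 8 of 10 members, and 74 bp and 859 bp from the nearest peak for Dusp16 and Dusp14. Of 13843 coding genes with a single RefSeq start, 46.3% had that start inside a reference peak, genes without any start site peak included. The best start site scores were 2061 for Dusp7, 2048 for Dusp5, 1942 for Dusp10, 1890 for Dusp2, 1773 for Dusp6, 1708 for Dusp4, 1594 for Dusp1, 1456 for Dusp8, 1296 for Dusp16 and 613 for Dusp14. Their median was 1740.5, against 1456 over the 12321 coding genes with a start site summit. Of the members, 7 lay above that median and 4 above the third quartile of 1799. The best distal scores, over 1000 bp from the start sites of all genes, ran from 563 in Dusp14 to 1851 in Dusp1, with a median of 1449.5.

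Dusp1, the p38 and JNK phosphatase that is induced early by Toll-like receptor ligands, had the most peaks of the 10 genes. Its count exceeded that of 97.9% of coding genes. The gene (chr17:26505590-26562128, minus strand) had 6 annotated start sites. The most upstream one lay 53656 bp before the main start, so that the annotated gene body of 56539 bp and the locus reached far upstream of the RefSeq promoter. Around the main start, summits were found at -729 (score 448), -156 (1594), +88 (1332) and +340 (1381). Further summits followed at +1106 (458), +1587 (114) and +2183 (349), the last of which was in a coding exon. The next summit upstream, at -1164, scored 1082. These 8 summits all belonged to a single peak of the merged call, and only 62 of 69718 merged peaks (0.0889%) had as many summits. The extended region over this promoter (chr17:26502262-26510438) was 8177 bp wide and held 13 summits, some of them beyond the 3′ end of the gene. As many summits were found in 23 of 59617 extended regions (0.0386%).

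Between 4 kb and 37 kb upstream of the main start of Dusp1 a series of further summits followed, most of them in the intron of the long annotated transcript. The highest of them lay at -27085 (score 1851), -6418 (1696), -25534 (1606) and -23247 (1224). The first was also the widest reference peak of the locus, at chr17:26535272-26535832, with 561 bp, and was wider than 97.2% of all reference peaks. The intron as drawn exists only for the long transcript, and by the RefSeq start these summits lie upstream of the gene. At the most upstream start of Dusp1 the nearest peak was 509 bp away and carried 1 summit of score 1381 that also lay at a start site of Ergic1, the neighbouring gene on the opposite strand. The summit at -27085 was nearer to Ergic1 than to Dusp1. Of the 28 peaks, 20 had Dusp1 as the nearest coding gene. With the locus centred on the RefSeq start, Dusp1 had 29 peaks and 33 summits, again the most among the members.

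Dusp2, an inducible nuclear phosphatase of immune cells that acts on ERK and p38, had 22 peaks and 24 summits, more peaks than 94.3% of coding genes. Its gene body is only 2218 bp long (chr2:127336159-127338376, plus strand), and 2 peaks overlapped it. At its start, summits at -134 (score 1890) and -713 (1670) were the highest of the locus. The window at -713 held NF-kB and STAT6 letters. A peak at -1726 (score 716) also held NF-kB letters. From the 3′ part of the gene onwards, 7 summits between +1679 and +5151 with scores of 324 to 867 lay within 1000 bp of a start site of Astl, which encodes an oocyte protease. Those at +1679 and +2034 were inside the gene body of Dusp2 and the others downstream of it. Together with the 2 promoter summits and that at -1726, 6 of these 7 formed 1 peak of the merged call with 9 summits, a number reached by 45 of 69718 merged peaks. The widest reference peak, 568 bp at chr2:127322730-127323297, was upstream at -13079 (score 1129) and held AP-1 and ISRE letters. The best distal summit, at +42181 (score 1369), lay nearer to Adra2b. The densest extended region (chr2:127336984-127340467) held 6 summits. Among the 22 peaks, 7 had Dusp2 as the nearest coding gene.

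Dusp4, a nuclear phosphatase for ERK and JNK, had 13 peaks and 14 summits around its gene (chr8:34807297-34819894, plus strand). Its start site summit at -39 scored 1708 and lay in the widest peak of the locus (474 bp, chr8:34806979-34807452). Minor summits followed at +454 (324) and +578 (358). Most other summits fell into 2 separate groups. An upstream group of 6 lay between -48065 and -40752, with scores of 613 to 1141, and no summit was found between it and the promoter. Inside the gene, 4 intronic summits lay between +4136 and +10561, the highest at +8056 with a score of 1308, which was also the best distal summit. A single summit lay far downstream, at +38893 (1260), in an intron of another coding gene and nearest to Tnks. Of the extended regions, 3 held 3 summits each, and none held more. They lay over the upstream group (chr8:34764271-34767294), the promoter (chr8:34806279-34808766) and the introns (chr8:34814523-34818650). In total 12 of 13 peaks were nearest to Dusp4 among coding genes.

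Dusp5, a nuclear phosphatase selective for ERK, carried the second highest start site score of the members. Its single start site summit, at -122 (score 2048), scored above 98.5% of all summits and was the one with adjoining CArG boxes shown above. This summit also lay within 1000 bp of a start site of AC137853.2. It lay in the widest peak of the locus (chr19:53528829-53529223, 395 bp). Of its 18 summits, 8 reached the median of the catalog. The 3 intronic summits scored 266, 900 and 266, and the lowest score of the locus was 189, at -42241. A group of higher summits lay downstream of the gene (chr19:53529109-53542431, plus strand) at +35269 (1505), +36909 (1248), +37296 (911) and +38885 (780), in 1 extended region (chr19:53563579-53568921). These were nearer to Nutf2-ps1 than to Dusp5.

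Among the cytoplasmic ERK phosphatases, Dusp6, a feedback inhibitor that is itself an ERK target gene, had 16 peaks with 1 summit each, and all 16 were nearest to Dusp6 among coding genes. The promoter summit at -76 scored 1773, in a peak of 474 bp (chr10:99262909-99263382) that held none of the motifs within 100 bp of the summit. A row of 4 summits between -2011 and -1099 (scores 250, 748, 1013 and 421) belonged to a single merged peak just upstream. They shared the densest extended region of the locus, with 5 summits, with the promoter (chr10:99260458-99264082). Past the 3′ end of the gene (chr10:99263231-99267489, plus strand), summits at +5359 (573), +5686 (1670) and +7343 (1296) followed, and the second was the best distal summit. Both others lay at start sites of predicted noncoding genes, Gm48089 and Gm34921 in this order.

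Dusp7 (chr9:106368632-106375724, plus strand) combined the highest start site score with 23 peaks in 18 extended regions, the largest number of extended regions among the members. Its best summit, at -784, had a score of 2061, above 98.6% of all summits. The summit next to the start, at -75, scored 1071. The single summit inside the gene, in an intron at +3407, scored 1799 and was the best distal summit. It held none of the motifs searched. A total of 7 upstream summits between -49311 and -19378 lay in introns of another coding gene. The widest peak, of 418 bp, was that of the best summit (chr9:106367643-106368060), and the densest extended region, with 3 summits, was that of the promoter (chr9:106366398-106369376).

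Of the phosphatases directed at JNK and p38, Dusp8 had 10 peaks with 1 summit each. Its start site summit at -100 scored 1456 and held 2 CREs. This summit also lay within 1000 bp of a start site of Gm32786. Its score was equal to the median of all coding genes with a start site summit. Intronic summits lay at +6265 (1082) and +10257 (505) of the gene (chr7:142079490-142095843, minus strand). The best distal summit, at +25521 (1357), and the widest peak (290 bp, chr7:142068579-142068868) were downstream, nearer to Mob2, in the densest extended region of the locus (chr7:142067879-142071909, 3 summits). Of the 10 peaks, 5 were nearest to Dusp8.

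Dusp10, known for its role in restraining JNK in innate immune cells, had few peaks but one of the highest promoter scores. The gene (chr1:184013302-184075636, plus strand) has 2 annotated start sites, and the upstream one was 20340 bp from the nearest peak. At the main start, 21079 bp further on, summits lay at -594 (780) and -65 (1942). The latter scored above 97.4% of all summits. Both lay in the densest extended region (chr1:184032942-184035182) and also within 1000 bp of a start site of 1700056E22Rik. The other 3 summits of the locus were at -54361 (1581), +14868 (748) and +32742 (393). The first lay in the widest peak of the locus (476 bp, chr1:183979772-183980247), outside coding genes, and neither its window nor that of the promoter summit held a motif.

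Dusp16, a phosphatase for JNK and p38, has the longest gene body of the members, 77158 bp (chr6:134715468-134792625, minus strand), and had 12 peaks with 1 summit each. Its promoter summit at -151 scored 1296, below the median of coding genes, and a summit at +1194 near another start site scored 695. A group of 4 intronic or noncoding start site summits lay at +39011 to +40950 with scores of 358 to 1188, in 1 extended region (chr6:134750902-134754410). That at +39011 lay at a start site of Gm36328. The windows at +39011 and at +21298 consisted entirely of repeat-masked sequence. The highest score of all 10 loci, 2232, was found here at -37461, but that summit lay at the start site of Crebl2, a neighbouring gene of the leucine zipper family. It lay in the widest peak of the locus (483 bp, chr6:134829896-134830378). The best distal summit was at -3948 (1394).

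Dusp14, the atypical member, stood at the low end of both measures. It had 5 peaks with scores of 367 to 613, and 0 of its 5 summits reached the median of the catalog. Its best start site score of 613 was exceeded by most coding genes with a start site summit, of which only 6.26% scored lower. That summit lay at -863 of the main start and 41 bp downstream of the most upstream of 5 annotated start sites (chr11:84048041-84069261, minus strand). A second summit at +1181 (573) lay near another start site. The summit at -4625 (563) was the best distal one. The other summits, at +35498 (367) and +36169 (486), lay in introns of another coding gene and together formed the densest extended region (chr11:84031384-84033670). The first of these lay in the widest peak of the locus (312 bp, chr11:84032659-84032970).

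**Figure D2:**
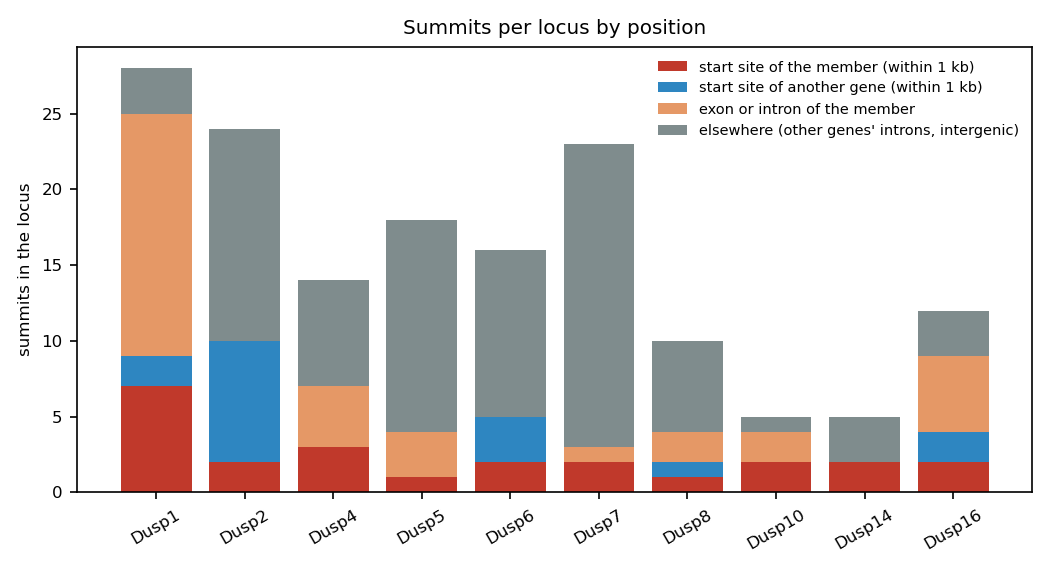
Number of summits per locus (y axis), stacked by position. Summits at start sites of the member itself were the smaller part in every locus, from 1 in Dusp5 and Dusp8 to 7 in Dusp1.

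Over the 10 loci, 24 of 155 summits (15.5%, Wilson 95% interval 10.6 to 22.0) lay within 1000 bp of a start site of the member. Of these, 18 were at the main start site and 6 at others. Summits at the main start had a median score of 1418.5. A further 16 summits (10.3%) lay at start sites of other genes, with a median of 685. Introns of the member held 32 (20.6%), 15 of them in Dusp1, and introns of other coding genes held 15 (9.68%). The remaining 67 (43.2%) lay outside coding genes, with a median score of 664, and 1 lay in a coding exon. Of the 152 peaks, 104 (68.4%) had the member as the nearest coding gene. By distance from any start site, 76.3% of the member peaks were distal, against 71.6% of all reference peaks. The 116 distal member peaks had a median best score of 721.5, against 675 for all distal peaks, and the 36 start site peaks had 963, against 979. The intervals cover counting error only.

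The same measures were taken for the rest of the pathway. Of the 14 other Dusp genes, 10 had a start site peak (71.4%), and Dusp15, Dusp21, Dusp26 and Dusp27 did not. Their median was 8 peaks per locus, from 2 in Dusp21 and Dusp26 to 20 in Dusp22. Their best start site scores ran from 495 in Dusp9 to 1995 in Dusp23, with a median of 1351 over the 10 genes. Of the 27 MAP kinase pathway genes (kinases from the MAP kinase kinase kinases down to the effector kinases), 25 had a start site peak. The exceptions were Mapk10, which encodes the neuronal JNK3, and Mapk12, which encodes p38 gamma. The start site scores of this list ran from 430 in Mapk13 to 2297 in Rps6ka5, with a median of 1670. The median was 13 peaks per locus, from 0 in Mapk10 to 49 in Mapkapk2. Both medians of the phosphatases, 14.5 peaks and a score of 1740.5, were above those of these lists, with ranges that overlapped broadly. These lists were chosen with results of these data known, so that the order is a description.

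**Figure D3:**
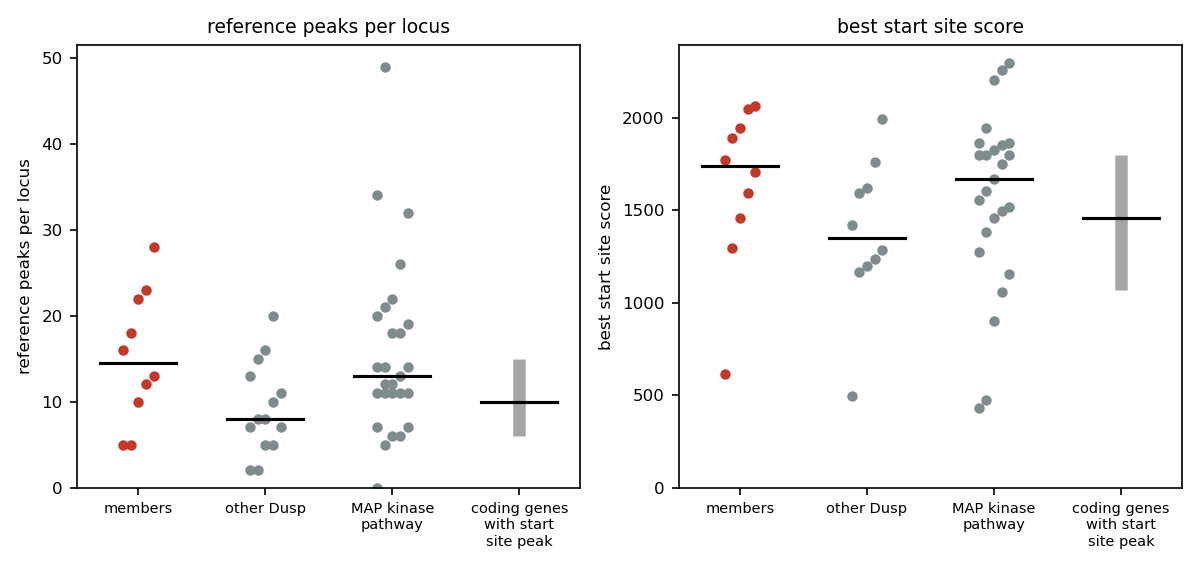
Reference peaks per locus (left) and best start site score (right, scale not stated) for the 10 members, 14 other Dusp genes and 27 MAP kinase pathway genes. Points are genes and lines are medians. The bar at the right of each panel spans the quartiles of coding genes with a start site peak. The ranges of the lists overlapped, and the members' medians of 14.5 peaks and a score of 1740.5 lay above those of the coding genes, 10 and 1456.

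The main start sites of the members were rich in CpG. Over 500 bp on either side of the main start, the ratio of observed to expected CpG had a median of 0.891, against 0.735 over 7765 coding genes with a start site peak and 0.221 over 6078 without, both limited to the 13843 coding genes with a single RefSeq start in the table. It was highest in Dusp5 (0.988) and Dusp16 (0.960) and lowest in Dusp10 (0.687), the only member below the median of the genes with a peak. GC content was 67.4% in the median, against 59.0% for these genes, with Dusp8 at 72.0% and Dusp6 at 54.5%. Dusp14, with the lowest start site score, had a ratio of 0.813, above the median of the genes with a peak. With the most upstream start site, an alternative that was not planned, the members' median ratio was 0.779. In the 300 bases around the RefSeq start (250 before and 50 after), a CRE was found in Dusp1 and Dusp8, among 1.79% of 32851 RefSeq start sites. The CArG box was found in Dusp5 (1.63% of start sites), and the GC box in Dusp2, Dusp5, Dusp10 and Dusp16 (16.5% of start sites). The E-box was found in Dusp1 and Dusp2 (7.15% of start sites) and the PU.1 site in Dusp5 (3.20%). The other 8 motifs, among them AP-1 (5.20%), NF-kB (4.51%) and STAT6 (6.95%), were found in 0 of the 9 members of that table.

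Because distal summits made up most of each locus, the best distal summits that held a motif are shown for 5 of the same 9 members. That of Dusp4, at +8056 (score 1308), held AP-1 letters and is not shown. The runs again hold 100 bases on either side of the summit and are given on the plus strand, with AP-1 (TGAGTCA), PU.1 or NF-kB letters in capitals.
Dusp1: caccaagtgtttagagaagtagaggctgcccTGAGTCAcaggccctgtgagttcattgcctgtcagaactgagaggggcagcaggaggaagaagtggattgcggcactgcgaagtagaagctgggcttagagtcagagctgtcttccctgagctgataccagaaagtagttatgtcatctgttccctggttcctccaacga
Dusp6: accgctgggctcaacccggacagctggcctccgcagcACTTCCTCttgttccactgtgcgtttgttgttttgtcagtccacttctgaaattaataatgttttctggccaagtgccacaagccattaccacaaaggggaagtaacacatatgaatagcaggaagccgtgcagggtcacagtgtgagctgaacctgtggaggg
Dusp5: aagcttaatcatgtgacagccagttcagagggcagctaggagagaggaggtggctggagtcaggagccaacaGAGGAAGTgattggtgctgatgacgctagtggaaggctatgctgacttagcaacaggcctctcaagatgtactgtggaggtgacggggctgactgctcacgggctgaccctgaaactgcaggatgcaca
Dusp8: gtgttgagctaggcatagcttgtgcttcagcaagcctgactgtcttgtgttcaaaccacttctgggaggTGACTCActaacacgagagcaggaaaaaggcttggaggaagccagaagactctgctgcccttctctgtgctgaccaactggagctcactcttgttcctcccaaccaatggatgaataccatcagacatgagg
Dusp14: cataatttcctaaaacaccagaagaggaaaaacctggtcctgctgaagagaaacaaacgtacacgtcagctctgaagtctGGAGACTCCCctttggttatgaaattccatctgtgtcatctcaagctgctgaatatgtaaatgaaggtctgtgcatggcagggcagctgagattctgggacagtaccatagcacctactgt
The Dusp1 window (chr17:26535457-26535657, score 1851) and the Dusp8 window (chr7:142069663-142069863, score 1357) held an AP-1 site. The Dusp6 window (chr10:99268817-99269017, score 1670) and the Dusp5 window (chr19:53564314-53564514, score 1505) held a PU.1 site. In the Dusp14 window (chr11:84072882-84073082, score 563) NF-kB letters lay 20 to 11 bases before the summit.

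Across the 152 member peaks, AP-1 was the most frequent motif within 100 bp of the best summit. It was found in 30 peaks (19.7%, Wilson 95% interval 14.2 to 26.8), against 16.2% of all reference peaks. Of these 30 peaks, 27 were distal, or 23.3% of the distal member peaks against 19.5% of all distal peaks. At start sites the shares were 8.33% and 7.86%. PU.1, the lineage factor of macrophages, was found in 23 member peaks (15.1%, 10.3 to 21.7), against 9.22% of all reference peaks, with 0 peaks in Dusp10, 1 in Dusp2, Dusp14 and Dusp16, and up to 4 in Dusp4, Dusp5 and Dusp6. With windows of 50 bp the shares were 10.5% (6.58 to 16.4) and 6.55%, and with 200 bp they were 17.1% (11.9 to 23.9) and 10.6%. The share over all peaks thus lay below the members' interval for PU.1 at all 3 windows. It lay inside the interval when only the 104 peaks nearest to a member were counted (14.4%, 8.94 to 22.4, against 9.22%). With only peaks whose best summit reached the catalog's median, it lay below the interval for PU.1 (10.4%, against 10.9 to 27.6) and the E-box (5.85%, against 6.11 to 20.3). With all member peaks, at 100 bp and 200 bp it lay inside the interval for the other 12 motifs. At 50 bp it also lay just below the interval for NF-kB (3.41%, against 3.61 to 11.7), the E-box (2.61%, against 2.69 to 10.0) and the CRE (0.591%, against 0.673 to 5.64). Peaks of a locus are not independent and 13 motifs were examined, so that this is a description and not a test.

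The other 11 motifs, among them those of factors that act downstream of LPS and IL-4, were less frequent. NF-kB letters were found in 12 member peaks (7.89%, 4.57 to 13.3), against 5.57% of all reference peaks. STAT6 (TTCNNNNGAA), the factor downstream of the IL-4 receptor, was found in 5 member peaks (3.29%, 1.41 to 7.47), against 6.87%. Its share depended on the window, with 15 member peaks (9.87%, 6.07 to 15.6) at 200 bp, against 11.9%. The interferon-stimulated response element (ISRE) was found in 5 member peaks (3.29%), against 3.66%. The GC box and the E-box were found in 10 peaks each (6.58%), against 6.44% and 4.76%. The CRE was found in 3 member peaks (1.97%), against 0.927%, all of them start site peaks of the Dusp1 and Dusp8 loci. Those at -156 of Dusp1 and -100 of Dusp8 lay at the member's own start site. The other, at -29770 of Dusp1, lay at a start site of AC122252.1. CArG letters were found in 2 peaks (1.32%), against 1.15%, and C/EBP (TTGCGCAA, TTGTGCAA or TTGCACAA) in 3 (1.97%), against 1.62%. RUNX (TGTGGTTT) was found in 2 peaks (1.32%), against 3.38%. ETS (CCGGAAGT) was found in 1 (0.658%), against 1.54%. The glucocorticoid element (GRE) was found in 1 peak, upstream of Dusp2 at -11528, against 0.328%. Any of the 13 motifs was found in 82 of 152 member peaks (53.9%), against 49.6% of all reference peaks.

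**Figure D4:**
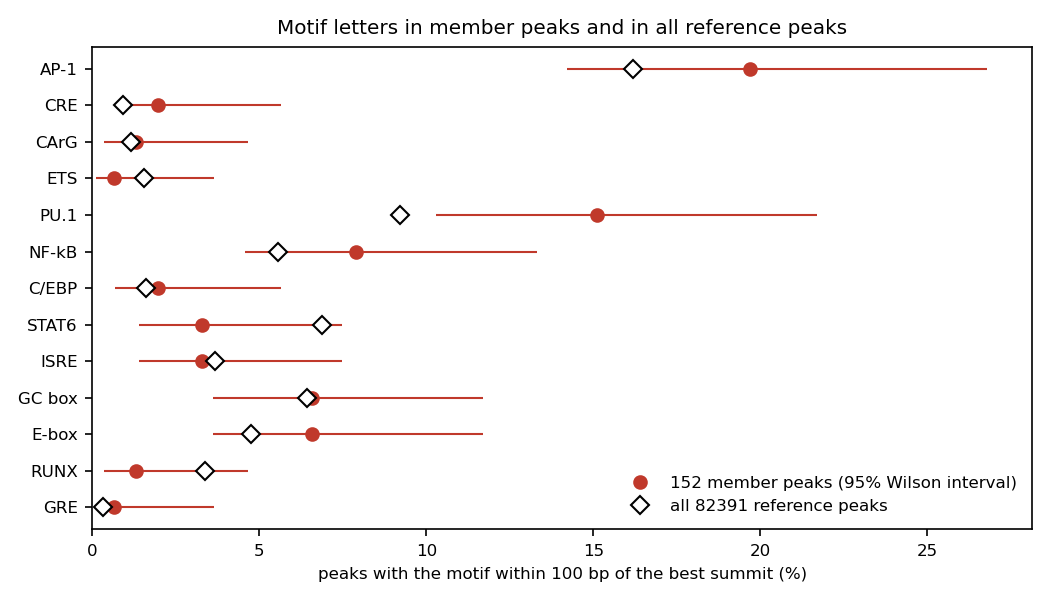
Share of peaks with each motif within 100 bp of the best summit (x axis, percent), for the 152 member peaks (points, with Wilson 95% intervals) and all 82391 reference peaks (diamonds). The diamond lies outside the interval for PU.1, and inside it for the other 12 motifs.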

How the data were processed

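Adapters had been removed by the authors with BBDuk, reads trimmed with Trimmomatic 0.39 and mapped to mm10 with ShortStack, and peaks called with MACS2 2.2.6 without local background and with duplicates kept (versions per the submitters' processing notes). A correction for the offset of Tn5 insertions is not described, which can displace summits, and duplicates can raise a score. According to the study's methods, the reference set kept only peaks that passed a strict q-value cutoff and overlapped between replicates. The 3 deposited lists pool all libraries and have 0 columns of other samples. The score deposited by the authors with each summit has no stated scale. Depth and replicate error are unknown.

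Elements overlapping a locus by 1 bp or more were counted (pandas 2.3.3, scipy 1.17.1, pysam 0.24.0) for the members and all coding genes of GENCODE M21, on assembly GRCm38.p6, the source of mm10. Motifs were searched on both strands, the glucocorticoid element with up to 2 mismatches outside its cores. The counting was tested on simulated data. RefSeq starts matched 9 of 10 members.

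Members, gene lists, motifs and alternatives were chosen with earlier results of these data known. Named were all members, genes of the other lists without a start site peak or with an extreme value, and neighbours whose start site lay in a peak given. For each locus the best start site and distal summits, the widest peak and the densest extended region were given. Neighbours that are only nearest to a peak were named after their values were seen.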

Additional observations from a re-analysis of the deposited data

How the results depend on the processing

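No paired analysis was possible because the lists carry no column per library, and for the same reason no replicate could be left out. The number of members with a start site peak was 9 or 10 under all alternatives, and those of the other Dusp and MAP kinase pathway genes stayed within 1.5 times their values. Counts per locus followed the window. The median number of peaks per member went from 14.5 to 9 with 20 kb, 24 with 100 kb, 3.5 in the gene body only and 8 with only summits scored at the catalog's median or higher. The median number of summits went from 15 to 9, 24.5, 3 and 8 in the same order. The median number of extended regions went from 8 to 5, 16 and 2.5 for the first 3 of these. Over all coding genes the median number of peaks was 3 with 20 kb and 12 with 100 kb. The share of summits at a start site of the member was 25.8% with 2500 bp. The share of peaks with any motif was 42.1% with 50 bp, 63.8% with 200 bp and 65.8% with these higher summits. The share of peaks nearest to the member was 46.1% with start sites of all genes and 87.0% with 20 kb. Centring on the RefSeq start, chosen after seeing the data, left the median counts at 14.5, 15 and 8. Of 52 values for single motifs, 45 stayed within the interval of the share. The lists give no depth, so that a region without a peak cannot be told apart from one below detection or one that failed the study's cutoff.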
